A study of Mus musculus with 6 samples.

Results

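The cytosolic ribosomal protein genes code for the protein part of the ribosome that translates nuclear mRNAs. They were taken from the gene symbols of the deposited tables: every symbol made of Rpl or Rps followed directly by a digit, plus Rplp0, Rplp1, Rplp2, and Rpsa, without pseudogene symbols that carry -ps and without the S6 kinase genes. The rule gave 86 of the 32287 genes in the tables, 52 of the large subunit and 34 of the small subunit. It left out 5 pseudogene symbols, whose UMIs came to 0.0361% of those of the 86 genes, and 10 kinase symbols. One symbol it takes in, Rps19bp1, codes for a binding partner of Rps19 and not for a ribosomal protein.

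The values are unique molecular identifier (UMI) counts, each standing for 1 captured mRNA molecule, from single cells of brain microvessels. Vessel fragments were pulled from the cerebrum of 1 hemisphere per mouse with beads against CD31, an endothelial surface protein, and digested into cells, so that each library is 1 mouse. The groups were 3 WT male mice of the C57BL/6J strain and 3 male ArcSwe mice (genotype AppArcSwe in the labels, TgAppArcSwe in the study), all untreated and 12 months old. ArcSwe mice carry an amyloid precursor protein transgene with the Arctic and Swedish mutations and develop amyloid in brain vessels. The promoter that drives the transgene is not given in the sources used here, and endothelial App lay between 1467 and 1612 CPM, UMI counts scaled to the depth of the class, in WT mice and between 1439 and 1604 CPM in ArcSwe mice, so that App does not check the labels in these cells.

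Ribosomal proteins fold onto ribosomal RNA in the nucleolus to form a small subunit, which reads the mRNA, and a large subunit, which joins amino acids. Their mRNAs are among the most abundant in a cell, and many begin with a cytosine and a run of pyrimidines, the 5′ terminal oligopyrimidine (TOP) motif, through which mTOR signalling sets their translation. Several members have a paralog, a related gene that can supply a similar protein and is used unequally between tissues.

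The start sequences show how closely paralogs can resemble their parents, and which of the members described here begin with the motif. They cover 15 bases before and 15 bases from the annotated start of transcription, read 5′ to 3′ on the coding strand, in the RefSeq annotation of GRCm38.p6. Capitals mark the run of C and T that begins with a C at the start base and holds at least 4 further pyrimidines. The genes lie at chr3:90213634-90213663 on the minus strand (Rps27), chr9:114982725-114982754 on the minus strand (Rps27rt), chr9:66946071-66946100 on the plus strand (Rps27l), chr3:28805493-28805522 on the plus strand (Rpl22l1), and chr11:114668565-114668594 on the plus strand (Rpl38).
Rps27: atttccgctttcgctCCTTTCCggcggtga
Rps27rt: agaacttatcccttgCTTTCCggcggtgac
Rps27l: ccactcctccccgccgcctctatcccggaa
Rpl22l1: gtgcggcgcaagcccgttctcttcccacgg
Rpl38: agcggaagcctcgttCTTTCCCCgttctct
Rps27 and its retrocopy Rps27rt shared a run of 14 bases in these windows, with runs of 7 and 6 pyrimidines at the start base. Rpl38 had a run of 8 pyrimidines, while the paralogs Rps27l and Rpl22l1 had no such run at the start base. Each of these paralogs did hold a run of this kind within 10 bases of an annotated start.

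Start sequences were found for 66 of the 86 genes, and 14 of them (21.2%) held the motif at a start base, against 2.96% of all other genes with a start sequence. Over start sites, the motif stood at 17.9% of 78 sites of ribosomal protein genes and at 2.51% of all 32851 sites of the same length. Within 10 bases of the start it was found at 53.8% of the sites of ribosomal protein genes and at 30.7% of all sites. A match is a description of the letters at the annotated start, which may differ from the start used in these cells.

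The libraries held 49059 cells, of which 44112 had 500 to 4500 detected genes and under 10% mitochondrial UMIs and were kept, 20079 from WT and 24033 from ArcSwe mice. Between 14742911 and 49090788 UMIs were kept per library. Pairs of libraries shared 4 to 42 cell barcodes. Cells were clustered without the 86 genes, so that no cell class rests on them, and the classes were named from their markers. The summed markers of the endothelial class lay at 16930 to 19911 CPM in endothelial cells and at 109 to 839 CPM in microglia, and those of microglia at 9668 to 14009 CPM in microglia and at 125 to 429 CPM in endothelial cells. The microglial markers Cx3cr1 and Aif1 were at 0 in endothelial cells because 5292 cells with a UMI of either were removed from that class.

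Ribosomal protein genes gave 16399746 of the 198201999 kept UMIs (8.27%). The pool was spread evenly over many members: 52 of them each held over 1% of it, and the 10 with the most UMIs held 22.9% together. Rps29, a small zinc-binding protein of the small subunit, led with 3.35% of the pool. Rps24 (2.39%), Rpl13 (2.35%), Rpl38 (2.25%), Rps27 (2.15%), Rpl37a (2.14%), Rpl27a (2.14%), Rps21 (2.13%), and Rpl41 (1.97%) were among those that followed. UMIs count molecules from their 3′ end and were not divided by gene length. In 6 members the part was under 0.1%. Rpl7l1, a relative of Rpl7 that acts in ribosome assembly, held 0.0727%, Rps27rt 0.0426%, and Rps19bp1 0.0323%. Rpl39l and Rpl3l, which elsewhere serve testis and striated muscle, had 279 and 110 UMIs in all cells, and Rpl10l, the testis copy of Rpl10, had 0 of the 198201999 UMIs.

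Some members share sequence with other genes, so that reads could have been split or left uncounted between them. In the last 300 bases of the annotated transcripts (GENCODE vM21), 53 members shared no window of 50 bases with another gene outside the annotated pseudogenes, among them Rpl38, Rps29, and Rpl22, while 18 shared over 50% of their windows. The latter include Rpl36a (98.8%), Rpl35 (96.0%), Rpl10 (90.4%), Rps27rt (88.4%, with Rps27), Rps12 (86.3%), Rpl41 (61.5%, with Gm10076), Rpl36al (60.5%), Rps27 (58.5%), and Rpl22l1 (55.8%). Levels of these members are uncertain to the extent that the counting divided such reads.

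The first question was how much of each cell class's mRNA the ribosomal protein genes make up. T and NK cells had the highest share, with 25.1%, 25.1%, and 22.1% of UMIs in the WT mice and 26.96%, 22.4%, and 18.1% in the ArcSwe mice. These were 296 cells in all. B cells, with 705 cells, followed with 19.5%, 19.9%, and 13.98% in WT and 18.3%, 15.1%, and 14.8% in ArcSwe mice. In UMIs summed over cells, no library of any vascular class or of microglia reached the lowest of these values. By the median over cells they did, since B cells and T and NK cells of WT mouse 3 had 9.49% and 9.22% and T and NK cells of ArcSwe mouse 2 had 11.1%, while the medians of ArcSwe mouse 1 were 10.6% in fenestrated and 9.74% in venous-like cells.

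Endothelial cells as a whole held 8.24%, 8.33%, and 8.07% in WT and 9.37%, 8.40%, and 8.22% in ArcSwe mice. Among their subclasses, venous-like cells had a mean of 9.48% over 6 mice, fenestrated cells 9.14%, arterial-like cells 8.32%, and capillary-like cells 8.04%. Venous-like cells were above arterial-like cells by 1.17 ± 0.316 percentage points (SD, n = 6 mice) and above capillary-like cells by 1.44 ± 0.196 points, each in 6 of 6 mice. These subclasses pool clusters that differed, given here with the cells that held microglial UMIs. The arterial-like cluster c8, led by Fbln5, Cytl1, and Mgp, had 10.1% to 11.6%, and c2 and c5 had 6.67% to 8.52%. The venous-like cluster c9 had 10.6% to 13.3%, c7 had 7.88% to 9.51%, and c13 had 6.92% to 8.78%. Cluster c8 was thus above c7 and c13 in every mouse. Smooth muscle cells, the contractile cells of arterial walls, had a mean of 8.01%, and pericytes, the mural cells of capillaries, 6.24%. Pericytes were thus lower than smooth muscle cells by 1.77 ± 0.673 points in 6 of 6 mice. Endothelial markers summed to 3137 to 8390 CPM in pericytes and to 98.7 to 434 CPM in smooth muscle cells, and their part in this difference was not tested.

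Microglia, the resident macrophages of the brain, had the lowest mean at 4.76%, and also the widest spread among mice of the classes other than lymphocytes. Their shares were 4.71%, 4.59%, and 2.85% in WT and 6.87%, 3.06%, and 6.45% in ArcSwe mice. Endothelial cells were above microglia by 3.68 ± 1.43 points in 6 of 6 mice, and above mural cells, the sum of pericytes and smooth muscle cells, by 0.669 ± 0.299 points in 6 of 6 mice.

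Of the 39 pairs of classes, 33 differed in the same direction in all 6 mice (exact two-sided sign-flip permutation test, p = 0.03125, the smallest that 6 pairs allow, Benjamini-Hochberg adjusted p = 0.0369 over the 39 pairs). With a stricter cell filter, and without the low-UMI clusters described next, 24 pairs in each case had 1 direction in every mouse and 0 passed an adjusted p of 0.05. The 6 pairs whose order changed between mice were arterial-like with fenestrated cells, capillary-like with fenestrated cells, venous-like with fenestrated cells, fenestrated with smooth muscle cells, capillary-like with smooth muscle cells, and pericytes with microglia (adjusted p 0.102 to 0.719). Without the low-UMI clusters, ArcSwe mouse 2 had too few microglia, and endothelial cells were above microglia by 1.27 ± 2.31 points in 3 of 5 mice (exact test, p = 0.375). Arterial-like cells then differed from capillary-like cells by 0.00762 points (p = 0.938, exact test), against 0.273 ± 0.206 points in 6 of 6 mice with all clusters. Endothelial markers summed to 2398 to 5701 CPM in B cells and 1490 to 5140 CPM in T and NK cells, erythroid markers to 10.0 to 11138 CPM in the latter, and the part of RNA from other cells in the lymphocyte shares was not tested.

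**Figure D1:**
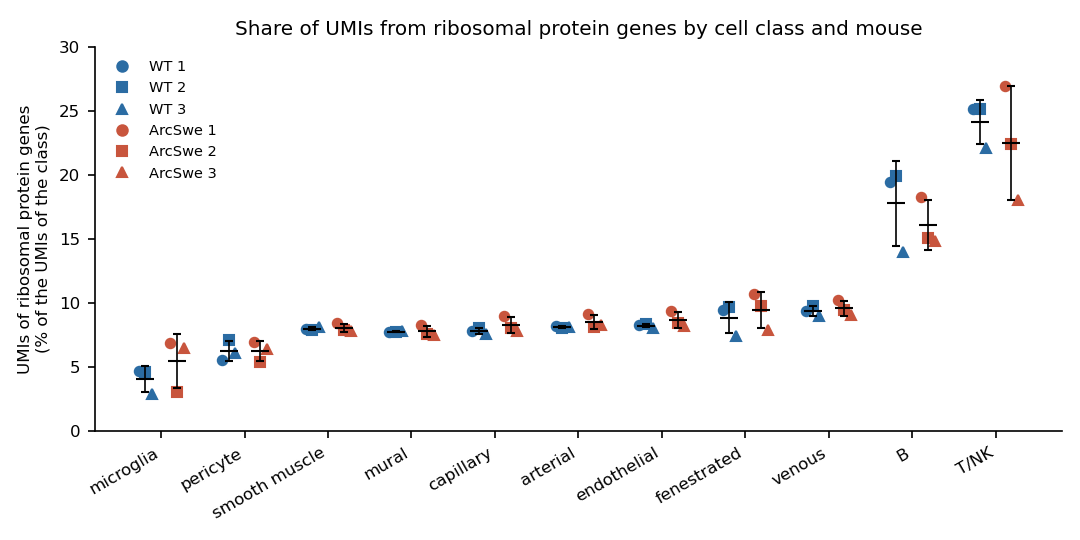
Share of UMIs from the 86 ribosomal protein genes (y axis, % of the UMIs of the class) in each cell class (x axis), with 1 point per mouse, shape for replicate, colour for genotype, and bars for the mean and SD of 3 mice of a genotype. T and NK cells (mean of 6 mice 23.3%) and B cells (16.9%) stand above every vascular class, and microglia (4.76%) have the lowest mean.

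The share was also read within classes by the UMI content of the clusters. In 4 of the 21 named clusters, the cells' UMI numbers had a median under 0.5 of that of their own library. These clusters held 5816 cells, 2657 from WT and 3159 from ArcSwe mice: clusters c4 and c11 among microglia (4437 cells), a cluster each of endothelial (1052 cells after removal of cells with microglial UMIs) and smooth muscle cells (138 cells). In microglia, the share of ribosomal protein UMIs in them was 1.75%, 1.51%, and 1.99% in WT and 1.33%, 0.987%, and 2.86% in ArcSwe mice. In the other microglial clusters it was 4.99%, 5.01%, and 6.67% in WT and 9.51%, 9.54%, and 10.3% in ArcSwe mice.

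The other clusters were thus higher by 5.93 ± 2.40 points (SD, n = 6 mice) in 6 of 6 mice, or 2.85 to 9.67-fold (exact two-sided sign-flip permutation test, p = 0.03125, the smallest that 6 pairs allow). Endothelial cells showed the same order, with means of 2.41% and 8.56% and a 2.52 to 4.53-fold difference in 6 of 6 mice, and so did smooth muscle cells, with 1.39% and 8.10%. The order did not hold for every cluster with few UMIs: c22, a cluster left unnamed for its median of 876 to 1027 UMIs per cell, had a share of 12.7% to 15.7% in the 6 mice. Low-UMI clusters held 26.0%, 32.9%, and 94.97% of the microglial cells of the WT mice and 71.3%, 93.2%, and 81.1% of those of the ArcSwe mice. WT mouse 3 therefore stood with the ArcSwe mice in this respect, and apart from the WT mice 1 and 2. Among endothelial cells these clusters held 2.88% to 8.85% of cells. Mitochondrially encoded genes held 0.702%, 0.773%, and 3.25% of the microglial UMIs in WT and 1.73%, 2.65%, and 3.50% in ArcSwe mice, so that WT mouse 3 was near the ArcSwe mice here too. The part of RNA quality in the low share of these clusters was not tested. The study's methods describe removing a microglial cluster that was low in ribosomal and high in mitochondrial genes. Whether that cluster matches c4 and c11 was not tested, and the values for all microglia given here include c4 and c11.

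**Figure D2:**
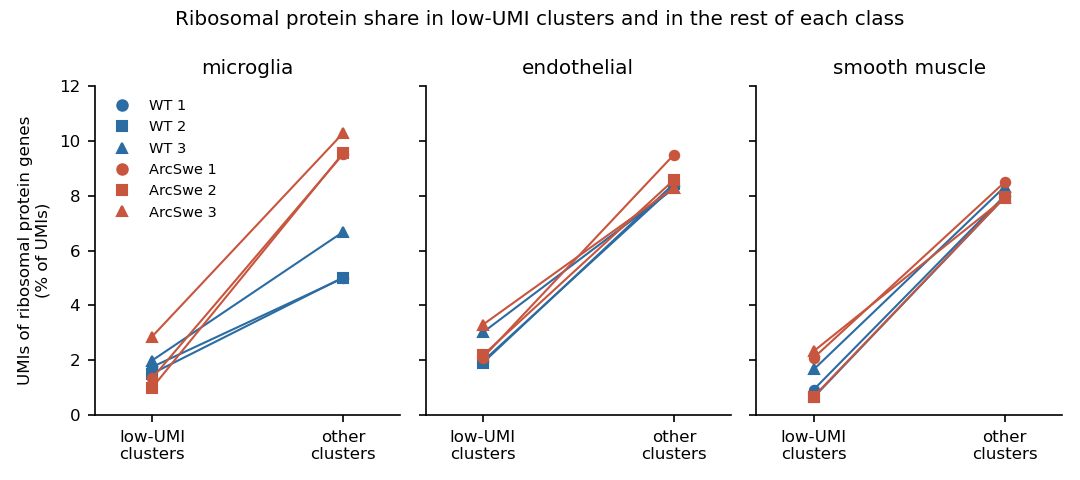
Share of UMIs from ribosomal protein genes (y axis, %) in low-UMI clusters and in the other clusters of microglia, endothelial cells, and smooth muscle cells, with a line for each mouse, shape for replicate, and colour for genotype. All 6 lines rise in each panel, and the microglial lines of ArcSwe mice end at 9.51% to 10.3% while those of WT mice end at 4.99% to 6.67%.

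The next question was whether all members follow the share of the class, or whether single members are used differently. UMIs were summed per mouse and class and tested against endothelial cells within mice. The comparisons of microglia and of mural cells with endothelial cells share the endothelial sums, so they are given side by side and not set against each other. Between microglia and endothelial cells, 66 of 84 members tested were lower and 0 higher in microglia (edgeR quasi-likelihood test, adjusted p under 0.05), where 41.3% of all genes tested were lower and 35.2% higher. At an unadjusted p under 0.05, 68 members were lower and 0 higher, where 42.2% of all genes were lower and 35.8% higher. DESeq2 called 69 members, all lower, and the share of all genes it called is not given here. Their median log2 fold change was -0.86, and that of all genes -0.14.

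Without the low-UMI clusters, 8 of 84 members were lower and 9 higher, where 36.9% of all genes were lower and 31.3% higher, and the median was -0.09. Over the 6 mice together, the broad decrease was thus not seen in the other cells, but the genotypes went opposite ways in total share. In WT mice these microglia held 4.99%, 5.01%, and 6.67%, below the 8.33%, 8.43%, and 8.26% of endothelial cells. In ArcSwe mice they held 9.51%, 9.54% (from 15 cells), and 10.3%, above the 9.49%, 8.57%, and 8.28% of endothelial cells. Rpl38, a protein of the large subunit that is needed for the translation of Hox mRNAs in the embryo, was the lowest in either set of cells. Its log2 fold change was -1.99 ± 0.28 (SE, adjusted p = 0.000119) in all microglia and -1.26 ± 0.25 (adjusted p = 0.00122) without the low-UMI clusters. Rps19, mutated in Diamond-Blackfan anaemia, had -1.47 and -0.69, Rps27l -1.39 and -0.68, Rpl9 -1.33 and -0.60, and Rpl31 -1.32 and -0.57, and all of these passed the test in either set. At the other end, Rpl10, which joins the large subunit late in its assembly, had 0.03 ± 0.19 (adjusted p = 0.906) in all microglia and 0.77 ± 0.17 (adjusted p = 0.0023) without the low-UMI clusters. Rpl10a went from -0.05 to 0.74, Rpl36al from -0.07 to 0.65, and Rpl7l1 from -0.02 to 0.31, each past the test only without the low-UMI clusters.

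In mural cells some members were higher and others lower than in endothelial cells, and a smaller part of them was called than of all genes. Of 83 members tested, 26 were higher and 15 lower in mural cells (edgeR quasi-likelihood test, adjusted p under 0.05), where 36.6% of all genes were higher and 37.4% lower, so 41 of 83 members and 74% of genes were called in either direction. Their median log2 fold change was 0.06 and that of all genes -0.01. Rpl22l1, the paralog of Rpl22, was the highest at 1.22 ± 0.06, from a mean of 334 CPM in endothelial cells to 704 CPM in mural cells. Rpl10 (0.74), Rpl21 (0.57), Rpl10a (0.56), and Rpl12 (0.55), the last at the base of the stalk that recruits elongation factors, followed it. Rpl38 was the lowest at -0.89 ± 0.05, from 2245 to 1089 CPM. Among the other members, Rpl11 (-0.27), which binds Mdm2 together with Rpl5 and the 5S RNA, Rps27 (-0.23), and Rps12 (-0.23) were lower by less. DESeq2, which scales the sums in another way, moved the median of all genes to 0.25 here and to 0.47 in microglia, and called 49 members in mural cells, 26 higher and 23 lower, with Rpl22l1 at 1.19 and Rpl38 at -0.91. Its share of all genes called in mural cells is not given here either.

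**Figure D3:**
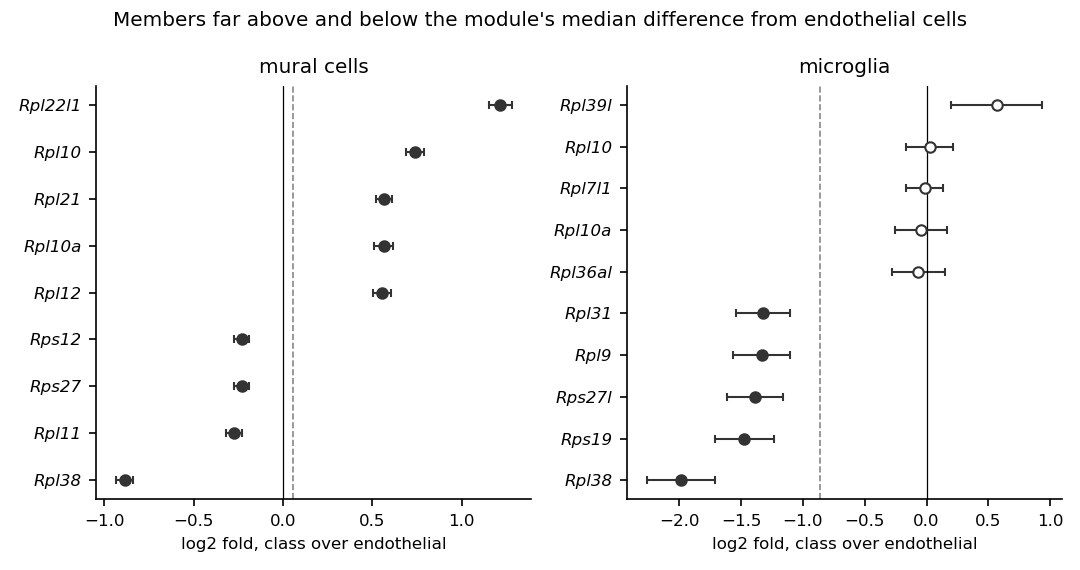
Log2 fold change against endothelial cells (x axis, with standard error) of members far above and below the members' median, for mural cells and for microglia, with the median as a dashed line and filled points for an adjusted p under 0.05. Rpl38 is lowest in each panel (-1.99 and -0.89), and Rpl22l1 is the highest in mural cells (1.22).

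Expressed as a part of the ribosomal protein pool, which removes the differences in total share, Rpl38 was highest in the endothelium of capillaries and veins. It made up 2.50%, 2.91%, and 2.59% of the endothelial pool in WT and 2.99%, 3.05%, and 1.86% in ArcSwe mice, and ranked second of all members there. In capillary-like cells the mean was 3.06% and in venous-like cells 3.00%, against 1.85% in arterial-like and 1.31% in fenestrated cells. In mural cells it was 1.40% ± 0.187 (SD, n = 6), in microglia 1.19% ± 0.162, in B cells 1.56% ± 0.240, and in T and NK cells 1.63% ± 0.233. The lowest endothelial value, 1.86% in ArcSwe mouse 3, lay above the highest values of mural cells (1.58%) and of microglia (1.44%), and within each mouse the endothelial value was the higher one in 6 of 6 mice.

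Other members stood out in single classes. Rpl22l1 made up 0.934% of the pool in smooth muscle cells and 0.350% to 0.464% in each endothelial subclass and in lymphocytes. Rpl10 ranged from 0.636% in T and NK cells to 1.32% in microglia. Rpsa, first described as a laminin receptor, ranged from 0.823% in venous-like cells to 1.66% in T and NK cells, and Rpl12 from 0.437% in capillary-like cells to 1.02% in T and NK cells. Rps27 led the pool in B cells with 3.204% ± 0.664, and Rps24 led it in T and NK cells with 3.39%, while Rps29 led in every other class. By the ratio of the highest to the lowest class mean, Rpl7l1 (6.64) and Rps27l (6.46) varied most among the members with over 0.1% of the pool in at least 1 class, and Rpl22l1 (2.67) and Rpl38 (2.57) came next.

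Members that work together did not always share one pattern. The following groups were chosen for their roles after values were seen. The stalk of the large subunit, which recruits and triggers the elongation factors, is built from Rplp0, Rplp1, Rplp2, and Rpl12. In microglia each of these made up more of the pool than in endothelial cells of the same mouse, in 6 of 6 mice, with means of 1.29% against 0.799% for Rplp0, 2.58% against 1.90% for Rplp1, 1.07% against 0.891% for Rplp2, and 0.666% against 0.451% for Rpl12. None of them passed the test on CPM between these classes, where their log2 fold changes were -0.15, -0.39, -0.57, and -0.28, above the members' median of -0.86. In mural cells Rplp0 (0.31), Rplp2 (0.12), and Rpl12 (0.55) were higher than in endothelial cells past the test, and Rplp1 was not (-0.07, adjusted p = 0.143).

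Rpl5 and Rpl11 enter the large subunit together with the 5S RNA, and they parted in mural cells, where Rpl5 was higher (0.30 ± 0.05, adjusted p = 0.000214) and Rpl11 lower (-0.27 ± 0.05, adjusted p = 0.000268). In microglia they stood at -0.68 and -0.61, both past the test. Rps6, the small-subunit protein that S6 kinases phosphorylate, fell by 1.02 on the log2 scale in microglia, from 606 to 295 CPM, and in mural cells it had 0.10 (adjusted p = 0.122). Rps27a, made as a fusion with ubiquitin, had -0.78 in microglia and -0.17 in mural cells, each past the test. The microglial values of these groups, the stalk included, were taken with the low-UMI clusters. The members' median was -0.86 there and -0.09 without those clusters, so the lower values in microglia are not particular to these genes. The pool parts of Rps6 in B cells (0.525%) and in T and NK cells (0.565%) lay below the mean of 0.720% in endothelial cells.

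Some members also differed between mice, and Rpl13a did so in every class. Among members with a steady part of the endothelial pool, Rps19 lay between 1.38% and 1.46% and Rpl27a between 2.13% and 2.28%. Rpl13a, by contrast, made up 0.601%, 0.588%, and 1.07% of the endothelial pool in WT and 0.676%, 0.825%, and 1.13% in ArcSwe mice, a coefficient of variation of 29.0%, and Rps15 (28.8%), Rpl12 (24.4%), Rpl5 (23.5%), and Rpl23a (21.7%) varied nearly as much. WT mouse 3 and ArcSwe mouse 3 held the highest values of Rpl13a, and they did so in smooth muscle cells (1.07% and 1.16%), microglia (0.967% and 1.02%), and T and NK cells (0.983% and 1.12%) as well. ArcSwe mouse 3 also had the lowest endothelial parts of Rps29 (2.44%), Rps27 (1.66%), Rpl38 (1.86%), and Rpl41 (1.64%). These differences between libraries cut across the genotypes, and their source was not tested.

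Paralogs were compared with their parents within each mouse, as paralog UMIs per 100 parent UMIs, which cancels depth and the total share. For Rpl22l1 the ratio to Rpl22 was 59.1, 50.2, and 50.9 in WT and 45.1, 41.8, and 49.5 in ArcSwe endothelial cells. In smooth muscle cells it was 153, 138, and 107 in WT and 113, 119, and 117 in ArcSwe mice, so that the paralog outnumbered its parent in every mouse. The ratio in smooth muscle cells was 2.51-fold that in endothelial cells, higher in 6 of 6 mice. Means were 92.4 in pericytes, 97.6 in microglia, 57.6 in T and NK cells, and 50.4 in B cells, the last differing from endothelial cells of the same mouse by -0.02 to 0.05 on the log2 scale.

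Rps27l, a p53 target, was lowest in lymphocytes. Its ratio to Rps27 was 10.7 ± 2.42 (SD, n = 6) in endothelial cells and 15.3 ± 2.80 in smooth muscle cells, but 2.25 ± 1.298 in B cells and 1.76 ± 0.717 in T and NK cells. The ratio in B cells was 0.195 of that in endothelial cells and that in T and NK cells 0.158, lower in 6 of 6 mice in each case. B cells held 281 and T and NK cells 119 UMIs of Rps27l, which limits the precision there. The retrocopy Rps27rt stayed between 1.78 and 2.41 per 100 Rps27 UMIs in every class mean, and 88.4% of its 3′ windows are shared with Rps27. Rpl36al reached 87.8 per 100 Rpl36a UMIs in microglia against 47.8 in endothelial cells, and Rpl7l1 17.2 per 100 Rpl7 UMIs against 6.80, each higher in microglia of 6 of 6 mice.

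Of 28 ratios tested against endothelial cells, over 5 pairs and 6 classes, 14 differed in the same direction in all 6 mice, which is the smallest p that the design allows (exact sign-flip permutation test, p = 0.03125). After adjustment over the 28 tests these stood at 0.0625, so that 0 passed 0.05. The pairs of Rpl39l, Rpl3l, and Rpl10l with their parents were too rare to test. Endothelial cells held 165 UMIs of Rpl39l and 42 of Rpl3l, mural cells 11 and 23, and microglia 41 and 0.

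**Figure D4:**
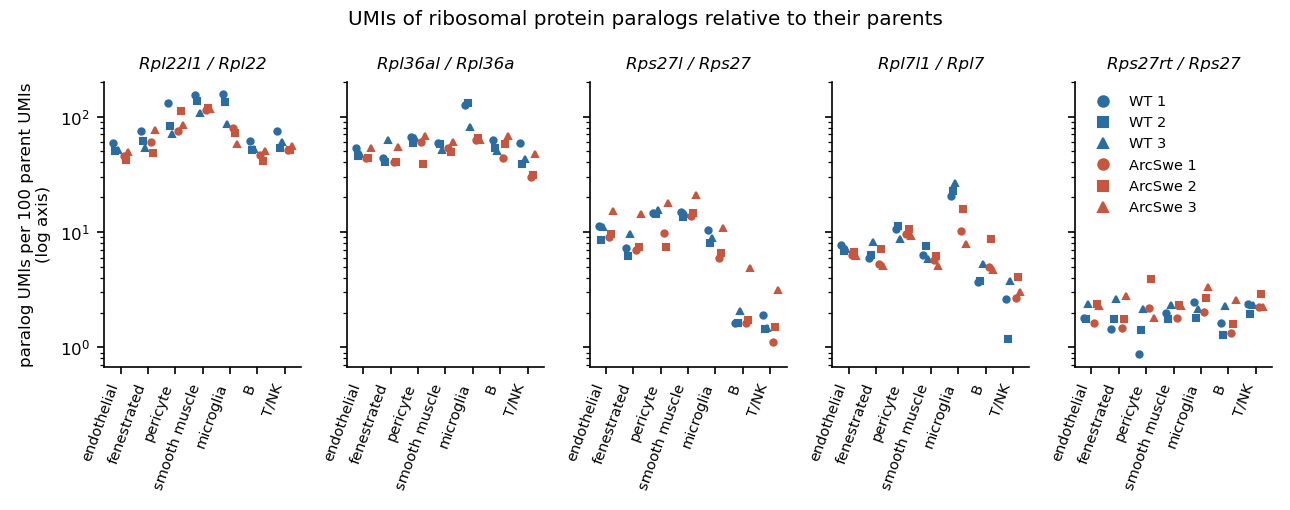
Paralog UMIs per 100 parent UMIs (y axis, log scale) in each cell class (x axis) for the 5 pairs tested, with 1 point per mouse, shape for replicate, and colour for genotype. Rpl22l1 lies highest in smooth muscle cells (mean 125 per 100 Rpl22 UMIs), and Rps27l drops to means of 2.25 and 1.76 in B cells and in T and NK cells.

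The balance between the subunits varied little. Summed large-subunit UMIs per small-subunit UMI were lower than in endothelial cells by 0.19 on the log2 scale in B cells and in T and NK cells alike, by 0.08 in fenestrated cells, and higher by 0.04 in smooth muscle cells, each in 6 of 6 mice (exact two-sided sign-flip permutation test, adjusted p = 0.0469 over 6 classes). In pericytes the difference was 0.02 ± 0.02 (5 of 6 mice higher, adjusted p = 0.150, exact test). Microglia differed by 0.0006 ± 0.0164 (2 of 6 mice higher, p = 1, exact test), although their total share was the lowest.

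The comparison of genotypes asked whether the module differs between ArcSwe and WT mice. In endothelial cells the share was 8.21% ± 0.131 in WT and 8.67% ± 0.620 in ArcSwe mice (SD, n = 3 each), a difference of 0.455 points within overlapping groups (exact two-sided permutation test, p = 0.3, where 3 against 3 mice allow no p under 0.1). ArcSwe mouse 1 was high and the other ArcSwe mice lay near the WT mice, and without it the difference was 0.101 points. In mural cells the shares were 7.71%, 7.76%, and 7.82% in WT and 8.25%, 7.56%, and 7.51% in ArcSwe mice, a difference of 0.00811 points (p = 1, exact test). In microglia the difference of 1.41 points lay within overlapping groups (p = 0.3, exact test). The groups overlapped in each of the other classes as well: differences were -0.0107 points in pericytes, 0.0836 in smooth muscle cells, 0.409 in arterial-like, 0.493 in capillary-like, 0.192 in venous-like, and 0.583 in fenestrated cells, and fell by 1.71 points in B cells and by 1.64 points in T and NK cells.

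Member by member, 0 of 84 genes tested were called in endothelial cells (edgeR quasi-likelihood test, adjusted p under 0.05), where 0% of 14295 genes were called. At an unadjusted p under 0.05 there was 1 member by edgeR, where 4.34% of all genes were, and 3 by DESeq2, which also called 0. The members leaned upward, with 81 of 84 above 0 and a median log2 fold change of 0.11 against -0.0034 for all genes. Rpl12 had the smallest p, with 282, 272, and 422 CPM in WT and 394, 406, and 503 CPM in ArcSwe mice, a log2 fold change of 0.45 ± 0.17 (SE, adjusted p = 0.991). WT mouse 3 lay inside the range of the ArcSwe mice. Rpl13a (0.32), Rpl23a (0.31), and Rps15 (0.31) were next, and Rpl39l, with 0.741 to 2.66 CPM, had 0.86 ± 0.42.

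Values of the genotypes did not overlap for 3 higher and 1 lower member of 84, where 3.35% of all genes were higher and 7.39% lower without overlap. These 4, named after their values were seen, were Rpl7a, Rpl36al, and Rpl26 (log2 fold changes 0.17, 0.16, and 0.14) and, lower, Rps19bp1 (-0.12). In capillary-like cells 9 of 84 members were higher without overlap and 0 lower, where 3.4% and 8.41% of all genes were, and in fenestrated cells 7 of 83 and 0, where 3.56% and 6.16% were. In these classes 0 members passed the adjusted test, where 0% and 0.0122% of genes did, and 5 and 2 members had an unadjusted p under 0.05, where 5.07% and 4.28% of all genes did.

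Mural cells gave 0 of 83 members called (0% of 11546 genes) and 1 at an unadjusted p under 0.05, by edgeR (3.56% of all genes) and by DESeq2 alike. The median was 0.02, and 51 members were above 0. Rps15 had 268, 298, and 569 CPM in WT and 391, 516, and 526 CPM in ArcSwe mice (0.36 ± 0.25, adjusted p = 1.00), with WT mouse 3 the highest of all. Rpl12 followed at 0.35 ± 0.15. In the arterial-like, venous-like, pericyte, smooth muscle, B, and T and NK classes 0 members were called as well, where 0% of genes were, or 0.0588% in T and NK cells, with 0 to 2 at an unadjusted p under 0.05. Members leaned downward in B cells, where 73 of 83 were below 0 with a median of -0.16, and in T and NK cells, where 61 of 81 were, with a median of -0.07.

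In microglia 0 of 84 members were called (0.106% of 11338 genes were), with 6 at an unadjusted p under 0.05 by edgeR, where 10.3% of all genes were, and 9 by DESeq2, which called 0. The members had a median log2 fold change of 0.54, against -0.05 for all genes, and 81 were above 0. Rpl12 had 230, 234, and 184 CPM in WT and 445, 215, and 646 CPM in ArcSwe mice (1.14 ± 0.40, adjusted p = 0.370). Here ArcSwe mouse 2 lay among the WT mice and the other ArcSwe mice stood above them. ArcSwe mouse 2 likewise stayed under the highest WT mouse for Rpl23a (0.92), Rpl36a (0.91), Rps15 (0.88), Rps12 (0.88), Rpl32 (0.86), and Rps19 (0.85), which had adjusted p from 0.356 to 0.512. Rpl7l1 was the 1 member without overlap between the genotypes, with 83.2, 80.7, and 54.5 CPM in WT and 50.0, 35.2, and 47.2 CPM in ArcSwe mice (-0.60 ± 0.27), where 5.73% of all genes were higher and 14% lower without overlap. Without WT mouse 3 it passed the test (-0.82, adjusted p = 0.0234) as the 1 member called, and the share of all genes called in that fit is not given here. The mitochondrially encoded genes, a sign of RNA quality, had a median of 0.81 in the same comparison, and their part in the members' values was not tested.

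The low-UMI clusters hold different parts of the microglia in each mouse, so the comparison was repeated without them, an alternative chosen after seeing the data. The share, taken over all 6 mice although ArcSwe mouse 2 had 15 such cells, was then 5.56% ± 0.965 in WT and 9.78% ± 0.433 in ArcSwe mice, a difference of 4.22 points without overlap (exact permutation test, p = 0.1, the smallest that 3 against 3 allow). Of 83 members, 71 were higher in ArcSwe mice and 0 lower (edgeR quasi-likelihood test, adjusted p under 0.05), where 5.35% of 10004 genes were higher and 0.23% lower. Their median log2 fold change was 1.04 against -0.02 for all genes. Rpl12 had 246, 259, and 498 CPM in WT and 626, 774, and 1073 CPM in ArcSwe mice (1.58 ± 0.31, adjusted p = 0.0162). Rpl32 had 656, 648, and 853 CPM in WT and 1470, 1693, and 1841 CPM in ArcSwe mice (1.44 ± 0.22, adjusted p = 0.00556).

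Rpsa (1.37), Rps19 (1.34), and Rpl38 (1.15) rose likewise. Of the paralogs, Rps27rt rose (1.13 ± 0.21, adjusted p = 0.0146), and 4 did not pass the test. Rpl22l1 had -0.01 ± 0.30 (adjusted p = 0.999), Rps27l 0.53 ± 0.21 (0.184), Rpl36al 0.54 ± 0.18 (0.131), and Rpl7l1 -0.44 ± 0.18 (0.207). Rps27rt had 360 UMIs in these cells, 6 of them in the mouse with the fewest, and shares 88.4% of its 3′ windows with Rps27. Its ratio to Rps27 overlapped between the genotypes in these cells (exact permutation test, p = 0.3). The binding partner Rps19bp1 had -0.07 (adjusted p = 0.930). Rps29 (0.85, adjusted p = 0.0602) and Rps27 (0.65, adjusted p = 0.171) also stayed short of the threshold.

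These counts rest on few cells. The other clusters held 738, 581, and 70 microglia in the WT mice and 290, 15, and 384 in the ArcSwe mice. Leaving out 1 mouse at a time gave 0 calls without WT mouse 1 or WT mouse 2, 76 without WT mouse 3, 59 without ArcSwe mouse 1, 54 without ArcSwe mouse 2, and 12 without ArcSwe mouse 3. The 5.35% of all genes called higher holds for the fit with every mouse, and no such share is given here for these fits. The cells also came from different clusters. Cluster c10, led by Cx3cr1, C1qc, and P2ry12, held 734, 578, and 56 of them in WT and 170, 9, and 34 in ArcSwe mice, while cluster c21, led by Cst7, Spp1, and Clec7a, held 4, 3, and 14 in WT and 120, 6, and 350 in ArcSwe mice.

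Within these clusters the genotypes were closer and overlapped, and values of either genotype rest partly on few cells. In c10 the share was 4.98%, 4.98%, and 5.74% in WT and 5.94%, 4.95%, and 7.71% in ArcSwe mice. Only ArcSwe mouse 2, with 9 cells, did not lie above every WT mouse there. In c21 the share was 7.25%, 12.1%, and 10.1% in WT and 13.1%, 12.8%, and 10.6% in ArcSwe mice. Only WT mouse 2, with 3 cells, reached into the range of the ArcSwe mice there, and WT mice 1 and 3 held 4 and 14 cells. In UMIs summed over cells c21 had a higher share than c10 in 6 of 6 mice, whereas by the median over cells ArcSwe mouse 3 had 4.34% in c21 and 7.79% in c10. By that median, ArcSwe mouse 3, with 350 cells, lay below every WT mouse in c21 (6.52%, 9.03%, and 6.45%). In c10 the median was 5.52% in ArcSwe mouse 1, with 170 cells, and 5.59% in WT mouse 3. Mitochondrially encoded genes rose too, 7 of 13 past the test with a median of 1.47.

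**Figure D5:**
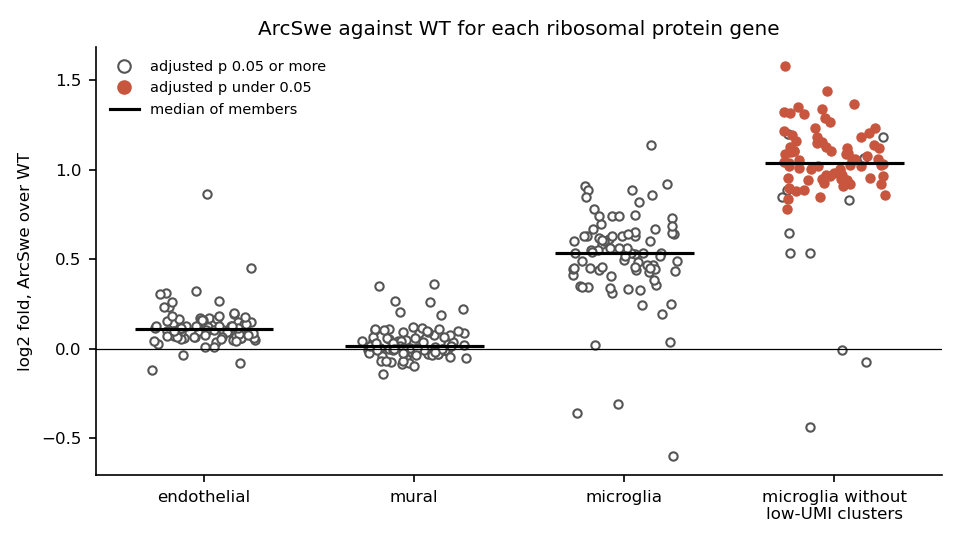
Log2 fold change of ArcSwe over WT mice (y axis) for each ribosomal protein gene tested, 1 point per gene, in endothelial cells, mural cells, microglia, and microglia without low-UMI clusters, with filled points for an adjusted p under 0.05 and the median as a line. Medians lie at 0.11, 0.02, 0.54, and 1.04, and called genes (71) are found in the last column only.

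An interaction term asked whether the ArcSwe effect was larger in microglia than in endothelial cells. Of 84 members, 0 passed (edgeR quasi-likelihood test, 0% of 14562 genes), and 0 had an unadjusted p under 0.05, where 9.02% of genes did. Without the low-UMI clusters 1 member passed, where 0.973% of 14082 genes did: Rpl32, whose ArcSwe effect was higher in microglia than in endothelial cells by 1.26 ± 0.24 on the log2 scale (adjusted p = 0.0415). Rpsa followed at 1.19 ± 0.25 (adjusted p = 0.0523), and 78 members had an unadjusted p under 0.05, where 15.3% of genes did. Between mural and endothelial cells the interaction gave 0 of 85 members (0% of 14241 genes) and 2 at an unadjusted p under 0.05, where 4.2% of genes were.

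In microglia, 3 of the 5 paralog ratios were lower in each ArcSwe mouse than in each WT mouse. Rpl22l1 stood at 155, 134, and 86.6 per 100 Rpl22 UMIs in WT and at 80.3, 72.4, and 57.3 in ArcSwe mice. Rpl36al stood at 126, 130, and 80.4 per 100 Rpl36a UMIs in WT and at 62.7, 65.1, and 62.1 in ArcSwe mice, and Rpl7l1 at 20.5, 22.7, and 26.4 per 100 Rpl7 UMIs in WT and at 10.1, 15.7, and 7.92 in ArcSwe mice. The other ratios overlapped, with means of 9.16 in WT and 7.79 in ArcSwe mice for Rps27l (p = 0.4, exact permutation test) and, higher in ArcSwe mice, of 2.13 and 2.69 for Rps27rt (p = 0.3, exact permutation test). They belong to 16 ratios compared between genotypes in endothelial cells, mural cells, and microglia, of which 5 reached the smallest p that the design allows (exact permutation test, p = 0.1, adjusted p = 0.320). Without the low-UMI clusters, where ArcSwe mouse 2 had 15 cells, Rpl36al and Rpl7l1 still did not overlap. Rpl22l1 did, with WT mouse 3 at 68.7 and ArcSwe mouse 1 at 75.1. Endothelial cells had the same order at a smaller size, with means of 53.4 in WT and 45.5 in ArcSwe mice for Rpl22l1 and of 7.22 and 6.39 for Rpl7l1.

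Genes that act with the ribosome were followed through lists. In endothelial cells, mural cells, and all microglia, 0 members of any list described here were called between the genotypes (edgeR quasi-likelihood test). Among them, the 7 elongation factors and Tpt1, which share the TOP motif with ribosomal protein mRNAs, had medians of 0.12, 0.04, and 0.34, the 30 initiation factors 0.01, -0.03, and 0.01, the 22 ribosome biogenesis genes -0.01, -0.08, and -0.08, and the 7 genes that control the translation of TOP mRNAs, such as Larp1 and Mtor, -0.07, -0.0026, and 0.03. The 78 mitochondrial ribosomal proteins had medians of 0.00077, 0.02, and -0.22, and the 13 mitochondrially encoded genes 0.33, 0.26, and 0.81. Between 0 and 2 members of each list had an unadjusted p under 0.05 in each class. In microglia without the low-UMI clusters, 1 of 7 elongation factors was called higher (median 0.70), 1 of 30 initiation factors (0.25), 1 of 78 mitochondrial ribosomal proteins (0.09, with 57 above 0), 0 of 21 biogenesis genes (-0.15), and 0 of 7 TOP control genes (-0.04), next to the 5.35% of all genes called higher there.

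The lists were also read between cell classes, where 41.3% of all genes were lower and 35.2% higher in microglia, and 36.6% higher and 37.4% lower in mural cells. In microglia against endothelial cells, 5 of 7 elongation factors were lower and 0 higher, 18 of 30 initiation factors lower and 6 higher, and 8 of 22 biogenesis genes lower and 8 higher. The 7 TOP control genes gave 2 lower and 2 higher, and the 13 mitochondrially encoded genes 2 lower. Mitochondrial ribosomal proteins, which form the separate ribosome inside mitochondria, were lower in 60 of 78 cases and higher in 3, with a median of -0.79, close to the -0.86 of the cytosolic members. These microglial values include the low-UMI clusters, without which the median of the cytosolic members was -0.09. Values of the lists between microglia and endothelial cells are not given here without those clusters. In mural against endothelial cells the same 78 genes were higher in 50 cases and lower in 5 (median 0.29), all 13 mitochondrially encoded genes were higher (median 0.86), and 4 of 7 elongation factors were higher and 1 lower. Of the initiation factors 16 were higher and 5 lower, of the biogenesis genes 9 and 8, and of the TOP control genes 4 and 2. Cytosolic and mitochondrial ribosomal proteins thus had medians of 0.06 and 0.29 in mural cells, next to -0.01 for all genes.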

How the data were processed

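The authors deposited raw UMI counts per gene and cell for each mouse, made with Cell Ranger 7.0.0 and the mm10 genome per the submitters' processing notes. The study used a 3′ kit and sequenced its libraries in pools of 6. Its methods do not state which libraries shared a pool. The counts were used as deposited. Cells with 500 to 4500 genes and under 10% mitochondrial UMIs were kept, scaled to 10000 UMIs per cell, and clustered (2000 variable genes, 30 principal components, 20 neighbours, leidenalg 0.10.2 at resolution 1), leaving out the ribosomal protein genes and the mitochondrially encoded genes. Clusters were named from at least 3 detected markers (21 of 30 clusters). The remaining 9 clusters held 2726 cells and entered no class. No doublet caller was run, and any endothelial cell in which Cx3cr1 or Aif1 had a UMI was removed. The classes were rebuilt here and may differ from those of the study.

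UMIs were summed per mouse and class. Sums were tested across all genes with edgeR 4.0.16 (TMM normalisation, quasi-likelihood test, low-count filter by its defaults, mouse as a term between classes), with DESeq2 1.42.0 as an alternative, in R 4.3.3. Shares and ratios were compared with exact permutation tests over mice (scipy 1.17.1), with at least 20 cells per mouse. Exceptions were the microglial share and paralog ratios between genotypes without low-UMI clusters, where 1 mouse had 15. The edgeR test between genotypes in those microglia included that mouse as well. Each mouse is a replicate, and p-values measure the spread between 3 mice per genotype. The precision of each sum rests on 10139791 to 22939640 endothelial, 1724308 to 5694883 mural, and 539156 to 5215380 microglial UMIs per mouse. CPM are counts scaled to the UMI total of the class in that mouse.

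Genes were named by a rule: all paralogs with their parents, the 10 members with the most UMIs, in each of endothelial cells, mural cells, and microglia the 10 with the largest fold change between genotypes and the called ones, in each class contrast the 5 farthest above and the 5 farthest below the members' median, and symbols that name no ribosomal protein. A few genes that the rule or a list holds are not reported here. The members, lists, and tests were chosen with earlier results of these data known. The removal of low-UMI clusters was chosen after seeing the data. Other alternatives were a stricter cell filter (1000 genes, 5% mitochondrial UMIs), another clustering resolution (2), other normalisations, no low-count filter, the replicate number as a block, and each mouse left out in turn. The fits were tested on simulated data.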

Additional observations from a re-analysis of the deposited data

Results flagged for a closer look

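An unnamed cluster, c28, which entered no comparison and carried markers of microglia and of endothelial cells (led by Cst7, Cox6a2, and Tyrobp), had a higher share of ribosomal protein UMIs in ArcSwe than in WT mice. The share was 9.87%, 15.6%, and 12.1% in WT and 27.7%, 33.9%, and 16.002% in ArcSwe mice, with a mean of 25.9% in the latter, from 3, 7, and 5 cells in WT and 31, 2, and 35 cells in ArcSwe mice. With so few cells it was not tested.

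The ArcSwe effect on Rpl32 differed between microglia and endothelial cells by 1.26 on the log2 scale without the low-UMI clusters (edgeR interaction, adjusted p = 0.0415). With all clusters the difference of the same gene was 0.67 (adjusted p = 0.687). Rpl32 was the 1 member of 84 that passed, in a set of cells chosen after seeing the data. ArcSwe mouse 2 held 15 microglia of this set. The microglia of WT mice came mostly from c10, and those of ArcSwe mice from c10 and c21.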

How the results depend on the processing

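The count of members called between genotypes stayed at 0 in endothelial and mural cells under every alternative run there. In microglia it was 0, except 1 without WT replicate 3 (Rpl7l1, lower) and 71 without the low-UMI clusters, and leaving out 1 mouse at a time gave 0 to 76 over both sets of cells. Between microglia and endothelial cells the count was 25 with the stricter cell filter, 17 without the low-UMI clusters, and 57 to 70 with 1 mouse left out. Between mural and endothelial cells it was 33 to 40 with 1 mouse left out. The interaction count was 1 without the low-UMI clusters. For the fits with 1 mouse left out or with the stricter cell filter, the share of all genes called is not given here. The difference in share between genotypes reversed to -0.0419 points in mural cells without the low-UMI clusters (-0.229 to 0.141 with 1 mouse left out) and to -0.579 points in microglia as a mean over cells (0.705 to 2.61 with 1 mouse left out), and was 0.101 to 0.676 in endothelial cells with 1 mouse left out. Of the 39 pairs of classes, 0 passed an adjusted p of 0.05 with the stricter cell filter, without the low-UMI clusters (lowest adjusted p 0.0554, exact test), or with any mouse left out, and 0 of the subunit ratios passed with any mouse left out, where 5 mice allow no p under 0.0625.

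Among single values, the Rpl22l1 ratio of B cells reversed to -0.000992 with the stricter filter, and the subunit ratio of microglia to -0.00537 with the stricter filter and -0.0106 without the low-UMI clusters (-0.00322 to 0.00552 with 1 mouse left out). Rpl35 in endothelial cells lay between -0.015 and 0.458 between genotypes with 1 mouse left out. Between microglia and endothelial cells, Rpl36al reversed to 0.28 and 0.65 with the stricter filter and without the low-UMI clusters (-0.19 to 0.0891 with 1 mouse left out), Rpl10a to 0.32 and 0.74 (-0.18 to 0.10), Rpl7l1 to 0.0769 and 0.31 (-0.14 to 0.0532), and Rpl10 to -0.00681 with DESeq2 (-0.0621 to 0.17 with 1 mouse left out). The cause of these changes was not tested.

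With the replicate block, 0 members were called in each of the 3 classes, and the differences in share, which complete pairs leave equal by construction, were 0.455, 0.00811, and 1.41 points. Same-numbered mice did not deviate together in every pair (correlations -0.107 to 0.342), so the numbers were not taken as pairs. WT mouse 3 and ArcSwe mouse 3, however, matched each other best in endothelial cells (0.34), mural cells (0.33), and microglia (0.14). The mice numbered 1 did so in microglia only (0.342). The source of this likeness was not tested.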
